A study of Mus musculus with 12 samples.

Results

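The genes described here are 8 genes of the spermatid, the haploid sperm precursor cell, most of whose proteins package its DNA: the protamines Prm1, Prm2 and Prm3, the transition proteins Tnp1 and Tnp2, and the spermatid histones H1fnt, Hils1 and H2afb1. They were taken by gene symbol from a table of 23235 genes, and all 8 were found and passed the filter on low values. RNA had been measured in sorted spermatocytes of C57BL/6 mice, at leptotene/zygotene (LZ) and at pachytene (P), which follow each other in the prophase of meiosis. The cells were wild type (WT) or labelled as Rnaseh1 knock-out (KO), which gave 4 groups of 3 libraries, each genotype at each stage. Rnaseh1 encodes an enzyme that digests the RNA strand of RNA:DNA hybrids. The labels name no Cre, promoter or allele for the knock-out and no age of the mice. They do not say that replicates came from separate animals, so the p-values measure the spread between these libraries, which may be technical.

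During spermatid development histones are first joined by testis-specific variants, then replaced by transition proteins and finally by protamines, small arginine-rich proteins that condense sperm DNA. Their genes are known to be transcribed after meiosis, in round spermatids, and their mRNAs are stored before translation. H1fnt and Hils1 are linker-type histones of spermatids, and Prm3 is an acidic protein whose gene lies among those of the protamines. In the RefSeq annotation Tnp2, Prm3, Prm2 and Prm1 follow each other on the minus strand of chromosome 16 with no other gene between them. Tnp1 is on chromosome 1, H1fnt (now H1f7) on chromosome 15 and Hils1 on chromosome 11. The symbol H2afb1 is an older name of 2 RefSeq genes, H2al2a on chromosome 2 and H2ab1 on chromosome X. The table also holds a row named Gm14920, an older symbol of H2ab1 only. The annotation behind the table is not given, so which locus the H2afb1 row stands for is not known here.

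The coding sequences show how different the members are despite their shared name. In mouse coding sequences of GENCODE M21, arginine codons made up 54.9% of the 51 codons of Prm1, the highest share of 21713 genes, and 35.5% of the 107 codons of Prm2, the next highest. The share was 20% for Tnp1, 16.3% for H1fnt, 13.7% for Tnp2, 7.06% for Hils1 and 1.98% for Prm3, against a median of 5.35% over genes. Prm3 thus held 2 arginine codons in 101. Prm1, Tnp1 and Prm3 are printed as the arginine-richest, an intermediate and the arginine-poor member, with arginine codons in capitals (of Prm3 the first 300 of 303 bases).
Prm1: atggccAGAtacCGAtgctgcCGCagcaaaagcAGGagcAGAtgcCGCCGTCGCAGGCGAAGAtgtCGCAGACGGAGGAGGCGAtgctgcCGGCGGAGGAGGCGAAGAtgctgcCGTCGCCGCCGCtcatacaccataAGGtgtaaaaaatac
Tnp1: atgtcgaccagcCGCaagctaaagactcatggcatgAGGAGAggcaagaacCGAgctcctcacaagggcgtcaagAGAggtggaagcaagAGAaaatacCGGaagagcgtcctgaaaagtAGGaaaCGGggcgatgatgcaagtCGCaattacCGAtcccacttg
Prm3: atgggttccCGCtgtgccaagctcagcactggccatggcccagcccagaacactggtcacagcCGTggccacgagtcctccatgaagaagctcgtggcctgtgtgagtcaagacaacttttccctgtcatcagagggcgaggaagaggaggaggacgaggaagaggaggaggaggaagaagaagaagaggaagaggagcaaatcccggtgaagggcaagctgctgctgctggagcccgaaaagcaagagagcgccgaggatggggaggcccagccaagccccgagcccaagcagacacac

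Because the 8 genes moved together in the results, the 250 bases before their transcription starts were read from RefSeq (GRCm38.p6) for the 7 genes with 1 locus. CREM, an activator of spermatid genes, binds the cAMP response element TGACGTCA. This exact element was in 0 of the 7 windows and in 1.55% of 32851 RefSeq promoters of the same length. With any base in place of its C (TGANGTCA), it was in 3 of the 7, 64 bases before the start of Prm1 on the opposite strand, 60 before that of Prm3 and 94 before that of Tnp1, and in 7.49% of all promoters. The letters TATAA, the core of a TATA box, were in 3 of the 7 and in 22.8% of all promoters. They lay 32 bases before the start of Prm1, 33 before that of Tnp2 and, on the opposite strand, 30 before that of Prm2. Both strands were searched, the first 2 patterns overlap each other, and a match is a description of letters only. The 5 windows with a match are printed in the direction of transcription with the matches in capitals. They are Prm1 at chr16:10796824-10797073, Prm2 at chr16:10792106-10792355, Prm3 at chr16:10790915-10791164, Tnp1 at chr1:73015900-73016149 and Tnp2 at chr16:10788656-10788905, all on the minus strand of GRCm38.p6.
Prm1: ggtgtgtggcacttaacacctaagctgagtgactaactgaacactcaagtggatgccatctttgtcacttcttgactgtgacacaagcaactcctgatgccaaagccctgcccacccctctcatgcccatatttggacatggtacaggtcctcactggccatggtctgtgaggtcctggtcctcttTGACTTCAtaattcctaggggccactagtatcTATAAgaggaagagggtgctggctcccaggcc
Prm2: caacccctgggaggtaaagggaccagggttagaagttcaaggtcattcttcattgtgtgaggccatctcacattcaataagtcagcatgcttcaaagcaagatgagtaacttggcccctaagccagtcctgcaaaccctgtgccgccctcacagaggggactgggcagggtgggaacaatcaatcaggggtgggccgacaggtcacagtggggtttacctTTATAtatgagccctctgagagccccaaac
Prm3: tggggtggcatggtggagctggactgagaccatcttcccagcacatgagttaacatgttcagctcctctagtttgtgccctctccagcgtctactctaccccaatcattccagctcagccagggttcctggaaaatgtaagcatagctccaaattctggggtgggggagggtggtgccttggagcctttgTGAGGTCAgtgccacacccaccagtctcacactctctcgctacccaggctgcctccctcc
Tnp1: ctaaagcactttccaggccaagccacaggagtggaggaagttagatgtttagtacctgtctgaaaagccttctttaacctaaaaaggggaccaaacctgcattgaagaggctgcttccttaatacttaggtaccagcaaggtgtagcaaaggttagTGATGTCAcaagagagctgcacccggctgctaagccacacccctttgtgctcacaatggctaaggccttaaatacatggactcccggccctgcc
Tnp2: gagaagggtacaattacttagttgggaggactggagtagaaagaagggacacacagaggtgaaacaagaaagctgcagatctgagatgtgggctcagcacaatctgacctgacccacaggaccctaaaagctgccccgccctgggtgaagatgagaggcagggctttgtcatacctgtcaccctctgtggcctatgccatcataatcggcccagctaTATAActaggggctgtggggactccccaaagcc

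Values are FPKM, that is fragments for each kilobase of a transcript relative to the library's mapped total, to which the authors had applied an ERCC spike-in scaling. The number of reads behind them is unknown. The summed FPKM of a library was 430372 to 885259 at LZ and 3319970 to 6702158 at pachytene, and 11146 to 15290 genes had a value of at least 1. Across genes, libraries of a group correlated at 0.967 or more, except those of the KO-labelled LZ group, at 0.923 to 0.952. Rnaseh1 itself was 17.8 ± 2.39 in WT and 14.7 ± 3.62 in KO-labelled LZ libraries, and 53.7 ± 2.74 and 80.2 ± 13.0 at pachytene (SD, n = 3). It was not called lower at either stage, so its level does not check the labels, and the deleted part of the gene is not given. Among the defining markers of the sorted stages, Dmc1, the meiotic recombinase, was 36.3 to 67.0 in LZ libraries. Ldhc, the testis lactate dehydrogenase, was 22528 to 67232 in pachytene libraries. From LZ to pachytene Dmc1 had log2 changes of -1.55 in WT and -2.62 in KO-labelled libraries. Spo11, the other defining LZ marker, instead rose by 3.22 and 4.38. The 13 LZ markers tested had median log2 changes of -0.49 in WT and -0.22 in KO-labelled libraries, where those of all genes were 1.64 and 2.29. The LZ markers thus did not all move as their stage would have it. Markers of spermatids were present in all 12 libraries as well, and are given with the results below.

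All 8 genes were read in all 12 libraries, and in the WT LZ libraries Prm1 ranked first of all 23235 genes in each of the 3. In WT pachytene libraries Prm1 ranked 6, 11 and 12, and Tnp2 ranked 22, 55 and 61. In KO-labelled libraries the rank of Prm1 was 4, 235 and 70 at LZ and 363, 1335 and 213 at pachytene, for replicates 1 to 3. FPKM is per length, so levels can be set side by side between genes. By mean level in WT LZ libraries the order was Prm1, Tnp2, Prm2, Tnp1, Prm3, Hils1, H2afb1 and H1fnt, and the same order held in WT pachytene libraries. KO-labelled LZ libraries kept that order, and in KO-labelled pachytene libraries Tnp1 stood above Prm2. The spreads of Tnp2, Prm2 and Tnp1 overlapped in WT LZ libraries, as did those of Hils1 and H2afb1, and in WT pachytene libraries those of Prm2 and Tnp1 did. The levels ran from 10080 ± 4485 for Prm1 to 115 ± 39.5 for H1fnt in WT LZ libraries and from 19741 ± 2228 to 192 ± 27.1 in WT pachytene libraries (SD, n = 3).

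**Figure D1:**
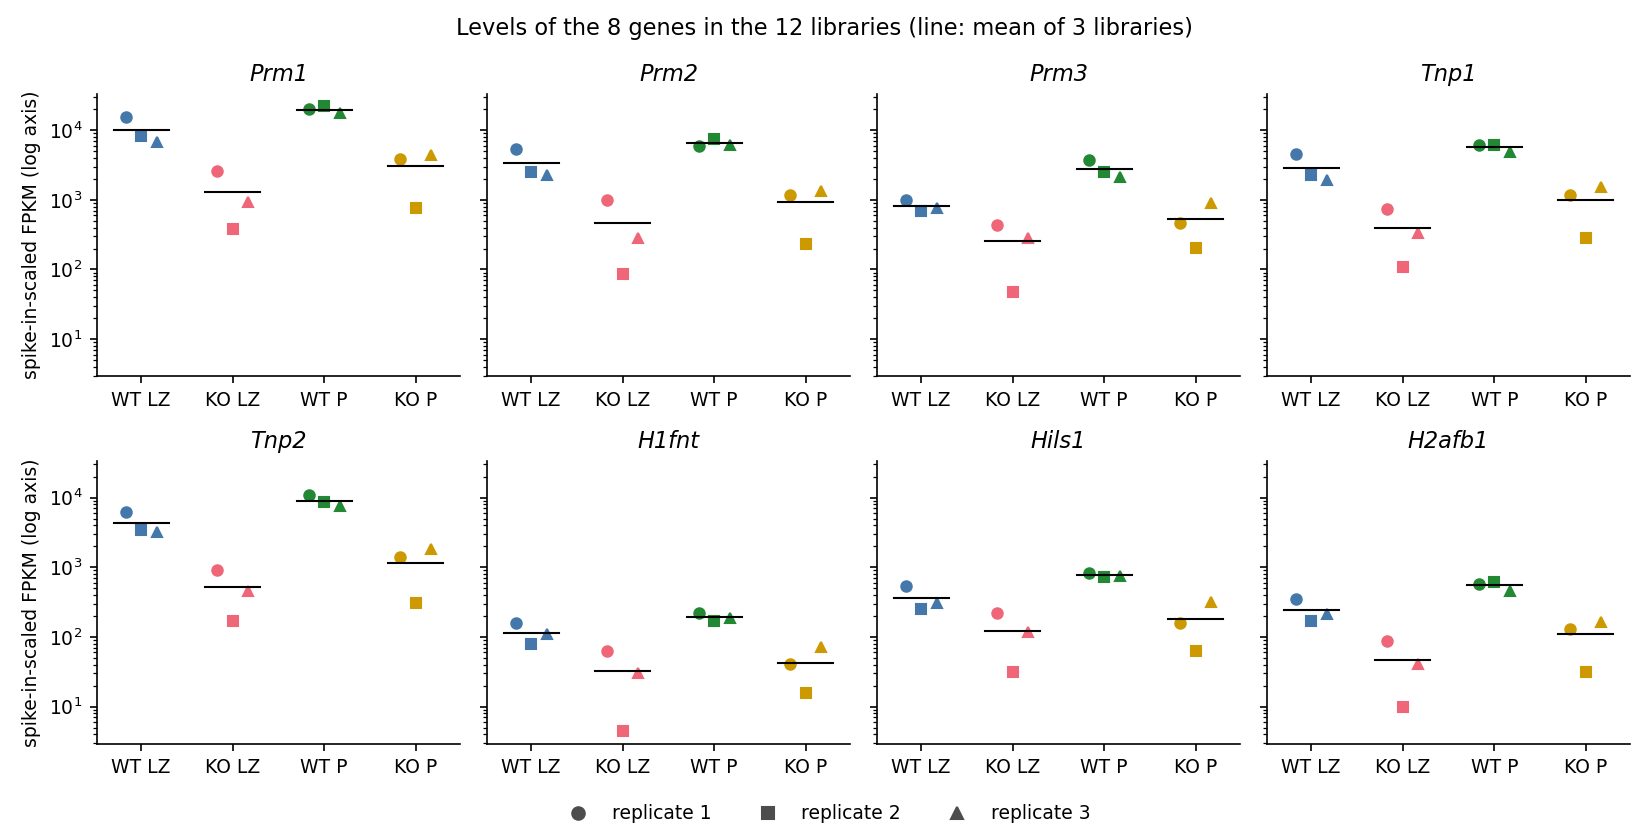
Level of each of the 8 genes in spike-in-scaled FPKM (log axis) by group, 1 point for each library with its replicate number as the symbol and a line at the mean of 3 libraries. For every gene the KO-labelled libraries lie below the WT libraries of the same stage, and replicate 2 is the lowest in both KO-labelled groups.

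KO-labelled and WT cells were compared at pachytene first, the later of the stages, where the difference was called for every member. All 8 genes fell, to between 0.128 and 0.237 of the WT mean. The transition protein Tnp2 had the largest log2 change of the 8, -3.30 (SE 0.63), and Hils1 and H1fnt the smallest, -2.36 (SE 0.63) and -2.37 (SE 0.70). In the limma fit over 15400 genes, 8 of 8 passed an adjusted p of 0.05 as lower, against 14.3% of all genes tested. In no member did the WT and KO-labelled libraries overlap, which held for 18% of all genes in that direction (8 of 8 members and 24% of all genes after median-ratio scaling, another scale described below).

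The spermatid histones come first in the order of their known roles. H1fnt read 221, 168 and 186 in WT pachytene libraries 1 to 3 and 40.6, 15.9 and 72.0 in KO-labelled ones (adjusted p = 0.0240 by limma). Hils1 read 828, 723 and 741 in WT and 160, 62.1 and 321 in KO-labelled libraries (adjusted p = 0.0175 by limma). H2afb1 read 579, 619 and 460 in WT and 130, 31.2 and 166 in KO-labelled libraries, with a log2 change of -2.63 (SE 0.67, limma adjusted p = 0.0159). In all 3 genes the WT libraries lay close together while the KO-labelled libraries spread over several-fold, with replicate 2 lowest and replicate 3 highest. The row named Gm14920 moved otherwise, at 26.7, 88.3 and 48.2 in WT and 115, 30.7 and 77.4 in KO-labelled libraries (log2 change 0.42, SE 0.51, adjusted p = 0.510 by limma), and its groups overlapped.

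The transition proteins Tnp1 and Tnp2 replace histones before the protamines do. Tnp1 read 6177, 6068 and 4817 in WT pachytene libraries and 1191, 283 and 1540 in KO-labelled ones, with a log2 change of -2.81 (SE 0.65, limma adjusted p = 0.0119). Tnp2 read 10970, 8565 and 7681 in WT and 1382, 302 and 1807 in KO-labelled libraries (adjusted p = 0.00529 by limma). The lowest WT library of each gene stood more than 3 times above its highest KO-labelled library. Of the 15400 genes tested, 0.234% had a lower log2 change than Tnp2.

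The protamines followed the same pattern. Prm1, the protamine of all mammalian sperm, read 19858, 21909 and 17457 in WT pachytene libraries and 3864, 764 and 4391 in KO-labelled ones, with a log2 change of -3.06 (SE 0.67, limma adjusted p = 0.00952). Prm2, which is made as a precursor and trimmed, read 5983, 7574 and 6165 in WT and 1186, 233 and 1351 in KO-labelled libraries, with a log2 change of -3.18 (SE 0.76, limma adjusted p = 0.0132). Prm3, the acidic member, read 3763, 2481 and 2132 in WT and 465, 200.1 and 902 in KO-labelled libraries, with a log2 change of -2.63 (SE 0.66, limma adjusted p = 0.0155). WT and KO-labelled libraries were apart in each, and KO-labelled replicate 2 was again the lowest.

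The fall at pachytene did not rest on the spike-in scale. Median-ratio scaling instead sets each library by the median of its genes' ratios to their geometric means. On that scale the log2 changes were -2.64 to -3.64 and 8 of 8 were called, against 9.62% of all genes. The median log2 change of the 8 was -2.72 on the spike-in scale, where that of all genes was 0.37, and -3.06 after median-ratio scaling, where that of all genes was 0.05. The count of 8 depended on single libraries: it was 5 without WT pachytene replicate 1 or 2 and 3 without KO-labelled replicate 2, and on the median-ratio scale it was 1 to 3 without any one of WT replicates 1 and 2 and KO-labelled replicates 1 and 2. In bulk libraries such as these, fewer cells of a type and less RNA per cell cannot be told apart.

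At LZ the same comparison asks whether the difference was there before pachytene. All 8 genes were lower in KO-labelled LZ libraries, at 0.119 to 0.336 of the WT mean, and on the spike-in scale their libraries did not overlap, as held for 36.5% of all genes in that direction. After median-ratio scaling 5 of 8 did not overlap, against 9.11% of all genes, and Prm3, H1fnt and Hils1 did. On the spike-in scale 7 of 8 passed the test as lower, against 12.9% of all genes, and Hils1 did not (log2 change -1.89, SE 0.63, adjusted p = 0.0603 by limma). After median-ratio scaling 0 of 8 passed in limma (adjusted p 0.0705 to 0.313, log2 changes of -1.31 to -2.84), against 0.688% of all genes, and 6 of 8 had an unadjusted p under 0.05. The median change of the 8 was -2.97 on the spike-in scale and -2.40 on the median-ratio scale, where those of all genes were -0.43 and 0.00.

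Among the histones at LZ, H1fnt read 157, 78.7 and 110 in WT libraries 1 to 3 and 63.0, 4.51 and 30.0 in KO-labelled ones (log2 change -2.33, SE 0.70, adjusted p = 0.0457 by limma). Hils1 read 531, 254 and 311 in WT and 219, 31.0 and 118 in KO-labelled libraries. H2afb1 read 348, 170 and 215 in WT and 87.2, 9.94 and 40.9 in KO-labelled libraries (log2 change -2.77, SE 0.67, adjusted p = 0.0238 by limma). For H1fnt and Hils1 the highest KO-labelled library came near the lowest WT library, and for H2afb1 the gap was wider. Gm14920 read 20.1, 16.2 and 10.8 in WT and 11.3, 3.74 and 7.81 in KO-labelled libraries, which overlapped.

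Tnp1 read 4474, 2236 and 1903 in WT LZ libraries and 727, 108 and 331 in KO-labelled ones (log2 change -3.16, SE 0.65, adjusted p = 0.0178 by limma). Tnp2 read 6282, 3479 and 3213 in WT and 908, 167 and 464 in KO-labelled libraries (log2 change -3.31, SE 0.63, adjusted p = 0.0151 by limma). Both genotypes varied widely for these genes, with replicate 1 highest in each group. Prm1 read 15197, 8211 and 6832 in WT and 2581, 385 and 918 in KO-labelled libraries (log2 change -3.29, SE 0.67, adjusted p = 0.0171 by limma). Prm2 read 5371, 2514 and 2274 in WT and 1005, 86.3 and 283 in KO-labelled libraries (log2 change -3.42, SE 0.76, adjusted p = 0.0203 by limma). Prm3 read 988, 698 and 759 in WT and 436, 48.0 and 284 in KO-labelled libraries (log2 change -2.14, SE 0.66, adjusted p = 0.0494 by limma). Prm3 and the linker-type histones thus had smaller changes at LZ than Prm1, Prm2, Tnp1 and Tnp2, a difference between genes that was not tested. The LZ count of 7 became 0 without WT replicate 1, without WT replicate 2, without KO-labelled replicate 3, or when only the 6 LZ libraries were fitted. It became 3 without KO-labelled replicate 2 and 4 without the filter on low values.

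**Figure D2:**
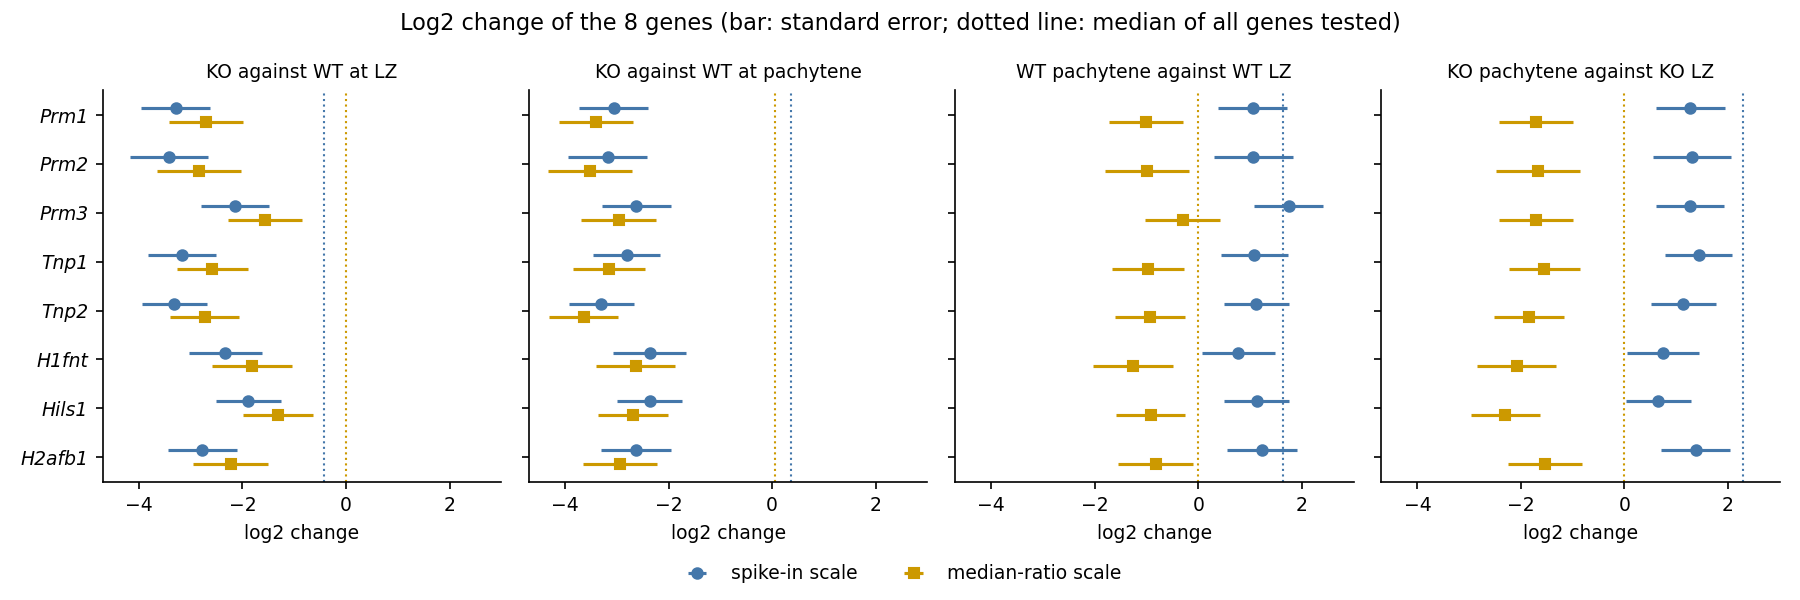
Log2 change of each gene (points) with its standard error (bars) in 4 comparisons, on the spike-in scale and after median-ratio scaling, with the median change of all genes tested as dotted lines. In both KO against WT panels all points lie left of 0 on both scales, whereas between the stages the points lie right of 0 on the spike-in scale and left of 0 after median-ratio scaling.

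Between LZ and pachytene in WT cells, the stage change in unmodified cells, Prm3 rose by 1.75 on the log2 scale (SE 0.66, limma adjusted p = 0.0261). It was the only 1 of 8 that was called higher, where 80.9% of all genes were. The other 7 had log2 changes of 0.78 (H1fnt) to 1.23 (H2afb1) that did not pass, although on the spike-in scale the libraries of the stages did not overlap for any member, as held for 83% of all genes. The median change of the 8 was 1.10 and that of all genes 1.64. After median-ratio scaling the sign turned, with log2 changes of -0.31 to -1.26, none called in limma and 0 of 8 with an unadjusted p under 0.05 (adjusted p 0.220 to 0.766, 0 of 8 higher against 20.4% of all genes and 0 of 8 lower against 17.8%). The call of Prm3 was lost without any one of WT LZ replicates 2 and 3 and WT pachytene replicates 1 and 2, and without the filter, and all 8 were called higher in a fit of the 6 WT libraries alone.

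In KO-labelled cells 0 of 8 were called between the stages, where 76.8% of all genes were called higher and 2.83% lower. The log2 changes were 0.65 (Hils1) to 1.43 (Tnp1), with limma adjusted p of 0.0573 to 0.349, and 1 of 8 had an unadjusted p under 0.05. The libraries of the stages overlapped for all 8, whereas 75.9% of all genes were higher without overlap. After median-ratio scaling Tnp2, H1fnt and Hils1 were called lower, with log2 changes of -1.84, -2.08 and -2.30, against 29.3% of all genes. On the spike-in scale 7 were called higher without KO-labelled LZ replicate 1 and 6 without KO-labelled pachytene replicate 2.

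Whether the KO effect differed between the stages was tested by the interaction of genotype and stage, and it was not shown for any member. The interaction was -0.48 (Prm3) to 0.35 (Tnp1) on the log2 scale, with limma adjusted p of 0.691 to 0.990, and 0 of 8 had an unadjusted p under 0.05. Among all genes, 34.9% had a higher and 3.49% a lower KO effect at pachytene. The standard errors were 0.89 to 1.07, and a difference has to be a multiple of its standard error to be called, so these libraries could show only large differences between the stages. After median-ratio scaling the values were -0.57 to -1.40, again with 0 called and 0 with an unadjusted p under 0.05 (lowest adjusted p 0.404 by limma), against 2.37% of all genes higher and 4.36% lower.

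The share of a library's summed FPKM that belonged to the members does not depend on the scaling between libraries. The 8 genes made up 3.77%, 2.19% and 2.56% of WT LZ libraries and 1.40%, 0.176% and 0.482% of KO-labelled LZ libraries. At pachytene they made up 1.46%, 1.18% and 0.947% of WT and 0.126%, 0.0327% and 0.219% of KO-labelled libraries. WT libraries held the higher share at both stages with no overlap, and the ratio of WT to KO-labelled means was 4.14 at LZ and 9.50 at pachytene (exact two-sided permutation p = 0.1 each, the smallest that 3 against 3 libraries allow, adjusted p = 0.133 over 4 comparisons). Within WT the mean share was 2.84% ± 0.823 at LZ and 1.20% ± 0.255 at pachytene (SD, n = 3, exact permutation p = 0.1). Within KO-labelled cells it was 0.686% ± 0.637 and 0.126% ± 0.0933, with overlapping libraries (SD, n = 3, exact permutation p = 0.2). KO-labelled LZ replicate 1 weighed most on these means: without it the log2 ratio of KO-labelled to WT shares at LZ moved from -2.05 to -3.11, and that of KO-labelled pachytene to KO-labelled LZ shares from -2.45 to -1.39. Without KO-labelled pachytene replicate 3 the log2 ratio to WT at pachytene moved from -3.25 to -3.92, and that to KO-labelled LZ to -3.12. In WT libraries the summed level of the 8 genes was thus higher at pachytene on the spike-in scale while their share of the library was lower, and in KO-labelled libraries both measures overlapped between the stages.

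**Figure D3:**
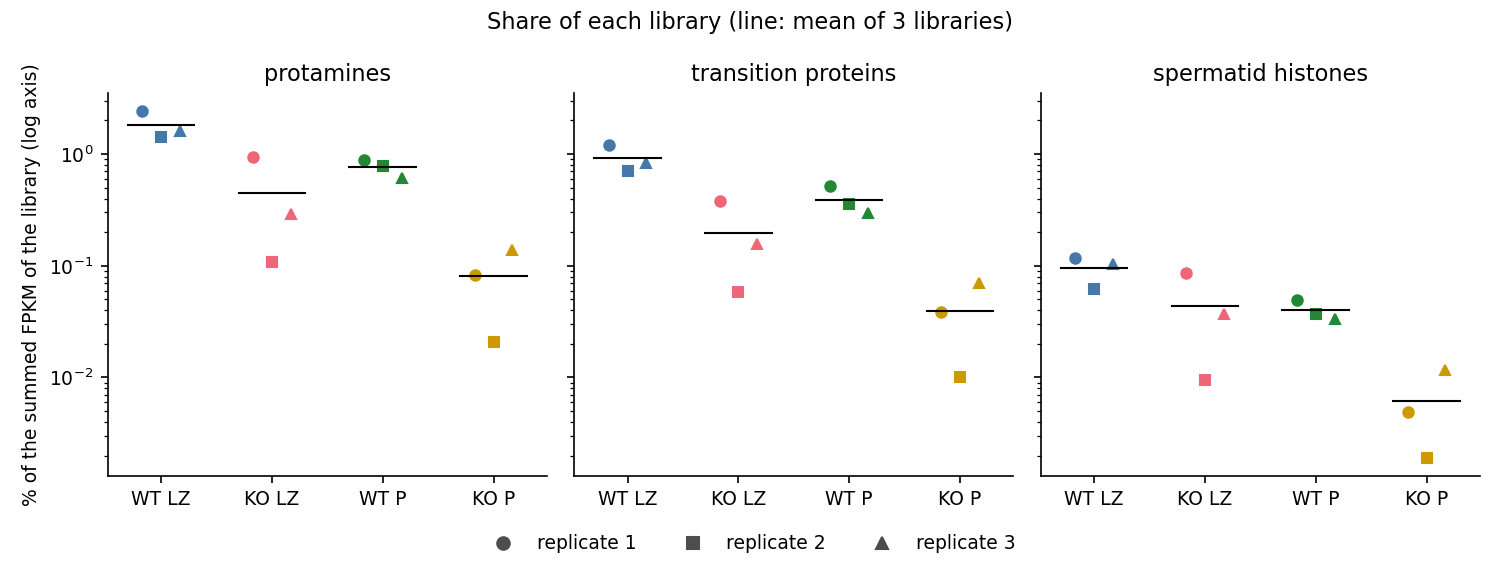
Share of each library's summed FPKM (percent, log axis) held by the 3 protamines, the 2 transition proteins and the 3 spermatid histones, 1 point for each library and a line at the mean of 3. For protamines and transition proteins WT libraries lie above KO-labelled ones of the same stage (protamines 1.42% to 2.44% in WT LZ), and the KO-labelled pachytene group has the lowest mean in each panel (protamines 0.0207% to 0.138%). For spermatid histones the LZ groups overlap.

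Ratios between members within a library were compared as well, since they do not depend on the scaling either. Prm2 over Prm1 had a mean log2 ratio of -1.60 ± 0.10 in WT LZ, -1.74 ± 0.40 in KO-labelled LZ, -1.59 ± 0.12 in WT pachytene and -1.70 ± 0.01 in KO-labelled pachytene libraries (SD, n = 3), and the groups overlapped in all 4 comparisons. The 3 protamines over the 2 transition proteins had mean log2 ratios of 0.98, 1.04, 0.99 and 1.04 in the same order, again overlapping. Tnp2 over Tnp1 was the exception: its linear ratio was 1.16, 1.07 and 1.17 in KO-labelled pachytene libraries, below the 1.78, 1.41 and 1.59 of WT pachytene and the 1.25, 1.54 and 1.40 of KO-labelled LZ libraries. The mean log2 difference was -0.49 from WT pachytene and -0.30 from KO-labelled LZ (exact two-sided permutation p = 0.1 each, the smallest possible, adjusted p = 0.6 over 12 tests), so neither passes a threshold that 3 against 3 libraries cannot reach.

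**Figure D4:**
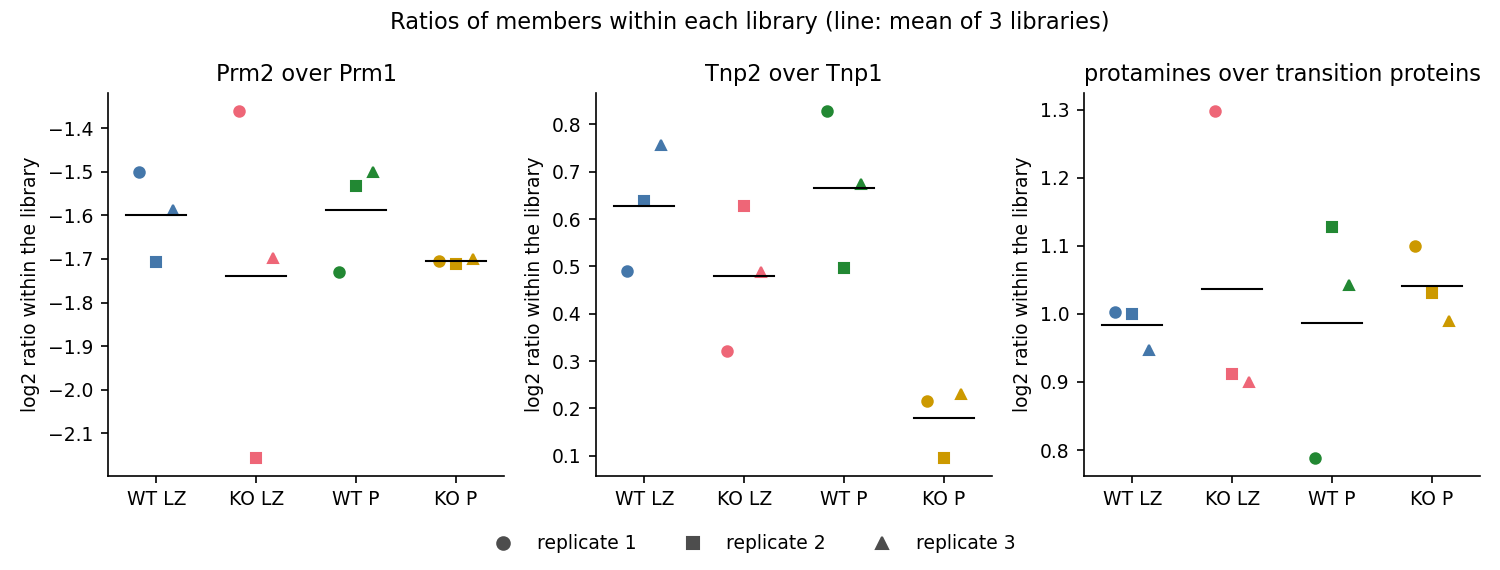
Log2 ratio within each library of Prm2 over Prm1, Tnp2 over Tnp1, and the summed protamines over the summed transition proteins, 1 point for each library and a line at the mean of 3. For Tnp2 over Tnp1 the 3 KO-labelled pachytene libraries, at 0.09 to 0.23, lie below all other libraries, and in the other panels the groups overlap.

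Taken over the 4 groups together, the members also varied together around their group means. After median-ratio scaling, the deviations from the group means correlated at 0.875 to 0.991 over the 12 libraries in the 28 pairs of members, with a median of 0.963. The widely spread KO-labelled libraries weigh most in these values. On that scale Prm1 was 267 to 1792 in KO-labelled and 6978 to 11098 in WT pachytene libraries. Correlations within single groups were not computed. Values of 1 library share its preparation and scaling, so these are descriptions. Other genes were ranked by their likeness over the 12 libraries to the mean of Prm1, Prm2, Tnp1 and Tnp2. The most alike were Cstl1 (Pearson r 0.986), Ttc24 (0.986), Spata3 (0.981), Ubl4b (0.981), Ppp1r2-ps7 (0.981) and Fam71f1 (0.979). The median of 9172 genes was -0.22, and 216 reached 0.9. Cstl1 read 333, 282 and 253 in WT pachytene libraries and 48.2, 5.48 and 55.2 in KO-labelled ones. It was chosen for its likeness over these same libraries, so its pattern is a description only. On deviations from the group means the most alike were Ttc24 (0.970), Fam71e1 (0.959), Cypt12 (0.957), Klk1b8 (0.953), Cstl1 (0.949) and Spata3 (0.949), and 57 genes reached 0.9.

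The nearest genes on either side of the chromosome 16 cluster did not all share the change. Only protein-coding genes whose RefSeq symbol was also in the table were considered, so other genes may lie between. On the Tnp2 side, Socs1, a suppressor of cytokine signalling, had log2 changes of -0.67 at LZ and 0.18 at pachytene, neither called (limma adjusted p = 0.333 and 0.761). Clec16a, the next such gene, rose at pachytene by 1.03 on the log2 scale (SE 0.25, adjusted p = 0.0143 by limma), and had a log2 change of 0.66 without a call after median-ratio scaling (adjusted p = 0.0770 by limma). On the Prm1 side, Litaf was not called at either stage, and Snn fell at pachytene, from 8.11, 5.69 and 5.87 in WT to 0.725, 1.03 and 3.29 in KO-labelled libraries (log2 change -1.60, SE 0.37, adjusted p = 0.0119 by limma). After median-ratio scaling Snn was still called lower at pachytene (log2 change -1.33, adjusted p = 0.0443 by limma). Litaf there had a log2 change of -0.80 without a call (adjusted p = 0.0737 by limma).

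Genes known to control the transcription or storage of these mRNAs did not move as 1 group. Of 15 measured transcript regulators, 8 rose and 4 fell at pachytene in KO-labelled libraries, with a median log2 change of 0.72 (0.37 over all genes). Of all genes 24.6% rose and 14.3% fell. After median-ratio scaling 2 rose and 4 fell, where 3.57% of all genes rose and 9.62% fell. Crem, the activator of spermatid genes, rose by 0.72 on the log2 scale (SE 0.25, limma adjusted p = 0.0403), from 491, 525 and 717 in WT to 1178, 930 and 752 in KO-labelled libraries. After median-ratio scaling its log2 change was 0.37, without a call (adjusted p = 0.208 by limma). Its coactivator Fhl5 (ACT) fell, from 432, 239 and 276 to 28.2, 26.0 and 160, with a log2 change of -2.61 (SE 0.70, limma adjusted p = 0.0178). Both kept their groups apart. The germ-cell TFIID subunit Taf7l fell by 2.57 and the bHLH-zip factor Spz1 fell by 1.80 on the log2 scale. At LZ 0 of the 15 rose and 5 fell, where 0.136% of all genes rose and 12.9% fell. Those that fell were led by Spz1 (-2.49), the testis poly(A) polymerase Papolb (-1.66) and the kinesin Kif17 (-1.26). After median-ratio scaling 0 were called at LZ. The KO effect was higher at pachytene than at LZ for 8 of the 15 and lower for 1, against 34.9% and 3.49% of all genes. After median-ratio scaling it was higher for 1 and lower for 1, against 2.37% and 4.36%. Papolb had an interaction of 2.36 (adjusted p = 0.00523 by limma) and Taf7l, the lower one, of -2.06 (adjusted p = 0.0414 by limma), and both were called after median-ratio scaling.

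Of 19 factors that act on spermatid chromatin, 9 rose and 4 fell at pachytene, where 24.6% of all genes rose and 14.3% fell, with a median log2 change of 0.42 (0.37 over all genes). After median-ratio scaling 3 rose and 3 fell, against 3.57% and 9.62% of all genes. The kinase Tssk6 read 103, 106 and 106 in WT and 21.8, 13.7 and 4.67 in KO-labelled libraries, with a log2 change of -3.10 (SE 0.68, limma adjusted p = 0.00971). Tssk6 was nearly uniform in WT pachytene libraries, and its lowest KO-labelled library was replicate 3 instead of replicate 2. The chromodomain gene Cdyl fell by 1.85 and the remodeller Chd5 fell by 1.48 on the log2 scale, the latter without a call after median-ratio scaling. At LZ 3 of the 19 fell, against 12.9% of all genes, Tssk6 (-2.68), the acetyltransferase Kat5 (-0.93) and the reader Phf7 (-0.78). After median-ratio scaling 0 were called at LZ, with log2 changes of -2.24 for Tssk6, -0.40 for Kat5 and -0.20 for Phf7. Of 13 other histone variant genes tested, 2 rose and 1 fell at pachytene, smaller shares than the 24.6% and 14.3% of all genes: H2afx (0.88) and H2afy (0.68) were higher and H2afv (-0.71) was lower, and H2afy was not called after median-ratio scaling. At LZ only H3f3a of these 13 was called, lower by a log2 change of -0.75, and not after median-ratio scaling.

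Other spermatid markers moved with the members. Of 18 such genes, 14 fell and 0 rose at pachytene in KO-labelled libraries, where 14.3% of all genes fell and 24.6% rose. Their median log2 change was -2.18, and that over all genes was 0.37. On the median-ratio scale 12 of the 18 fell, against a background share of 9.62%. At LZ 6 of the 18 fell, where 12.9% of all genes did. Median log2 changes there were -1.84 for the 18 and -0.43 for all genes. On the median-ratio scale 0 of the 18 fell at LZ, against a background share of 0.688%. Spem1 (-2.96), the sperm glycolytic enzyme Gapdhs (-2.57) and the mitochondrial capsule protein Smcp (-2.56) led at pachytene. Spem1, the antizyme Oaz3 and Smcp led at LZ, with log2 changes of -2.69, -2.41 and -2.38. The defining marker Acrv1, of the acrosome, read 275, 270.2 and 242 in WT pachytene libraries and 62.1, 38.7 and 87.6 in KO-labelled ones. The acrosomal gene Spaca1 read 391, 399 and 356 in WT and 105, 61.5 and 133 in KO-labelled ones. Neither gene overlapped between genotypes at this stage, and replicate 2 was the lowest KO-labelled library for both. The summed share of the 18 markers was 0.247% to 0.374% in WT LZ, 0.0371% to 0.320% in KO-labelled LZ, 0.131% to 0.189% in WT pachytene and 0.0130% to 0.0443% in KO-labelled pachytene libraries. The part of spermatids among the sorted cells in the members' change was not tested.

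The 8 members summed to 6.88 to 10.1 times the summed level of these 18 markers in WT LZ libraries and to 3.16 to 4.74 times in KO-labelled LZ libraries, without overlap. At pachytene the multiples were 7.25 to 8.38 in WT and 2.52 to 6.23 in KO-labelled libraries, again without overlap. The members' sum was thus lower relative to the markers' sum in every KO-labelled library than in the WT libraries of its stage. The members include the genes of highest level, which weigh most in their sum, and this comparison was chosen after the values were seen. Gene by gene the log2 changes overlapped. At pachytene Hils1 (-2.36) and H1fnt (-2.37) fell less than the marker Spem1 (-2.96), with medians of -2.72 for the members and -2.18 for the markers. At LZ Hils1 (-1.89) fell less than Spem1 (-2.69), with medians of -2.97 and -1.84.

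**Figure D5:**
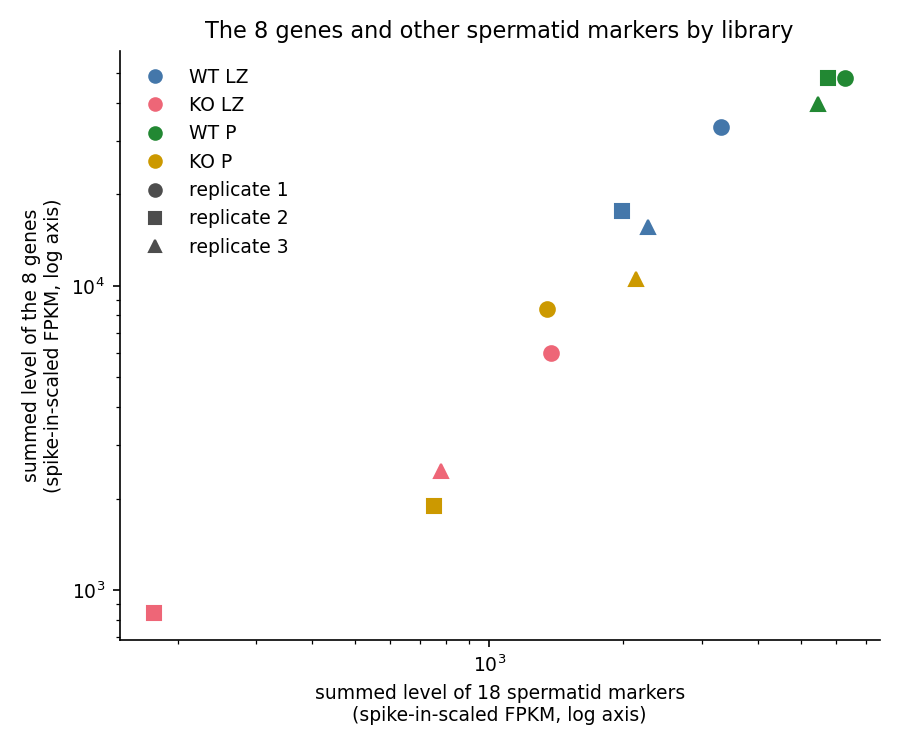
Summed level of the 8 genes against the summed level of 18 other spermatid markers in each of the 12 libraries (both in spike-in-scaled FPKM, log axes). KO-labelled libraries lie at lower values of both sums than WT libraries of their stage, and KO-labelled LZ replicate 2 is the lowest point, at 841 for the members and 177 for the markers.

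Markers of other testis cells moved in several directions beside the members, and their part was not tested. Sums are over all markers in the table, and the counts stand against 24.6% of all genes higher and 14.3% lower at pachytene and 12.9% lower at LZ. At pachytene 8 of 9 spermatogonia markers fell (7 after median-ratio scaling), with summed levels of 415 to 514 in WT and 44.4 to 115 in KO-labelled libraries, and Zbtb16 was between 0.454 and 3.47 there. Sertoli cell markers had 2 of 8 lower at pachytene and 3 after median-ratio scaling (sums of 2381 to 2564 in WT and 1143 to 1407 in KO-labelled libraries) and 1 of 8 higher at LZ, where 0.136% of all genes were, and 2 with median-ratio scaling, where 0.39% were (566 to 1180 and 602 to 1617). Leydig cell markers had 2 of 8 higher at pachytene, close to the background share (1 of 8 with median-ratio scaling, sums of 2343 to 8741 and 1372 to 5517), and their defining gene Cyp17a1 was at 0 in WT LZ replicate 1. Of the 6 peritubular and endothelial markers tested, 1 rose and 4 fell at pachytene, and 0 and 3 after median-ratio scaling (531 to 694 and 161 to 211). Of the 7 blood and macrophage markers tested, 1 rose and 1 fell there and 0 were called after median-ratio scaling (101 to 582 and 295 to 455), and Csf1r was at 0 in WT LZ replicates 2 and 3 and KO-labelled LZ replicate 2. Among the markers of the sorted stages, 9 of 13 pachytene markers rose at pachytene and 8 of 13 fell at LZ, and 2 of 13 leptotene/zygotene markers rose and 5 fell at pachytene, with 0 called at LZ. After median-ratio scaling 4 pachytene markers rose at pachytene and 0 were called at LZ, and of the leptotene/zygotene markers 0 rose and 5 fell at pachytene.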

How the data were processed

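RNA of sorted mouse spermatocytes was analysed in 12 libraries of 4 groups, 3 in each. Per the submitters' processing notes, the tools were TopHat2 2.1.1 and Cufflinks 2.2.1 with the build mm9. Deposited are FPKM that the authors had scaled by ERCC spike-in RNA, per the table's name; the annotation and the scaling formula are not given in the sources used here. The table's 4 unnamed columns were not used. It holds no counts, so depth is unknown and no counting interval can be given.

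Genes that reached FPKM 1 in 3 or more of the 12 libraries (15400) were kept and transformed as log2(FPKM + 1), which understates changes of low genes. One mean per group was fitted in limma 3.58.1 (R 4.3.3) with variances that follow the mean level, after a check on simulated data. Two-sided p-values were adjusted over all genes (Benjamini-Hochberg) and called under 0.05. Shares and ratios within libraries were compared by exact permutation tests in SciPy 1.17.1. FPKM before the spike-in scaling were estimated by dividing out a factor inferred for each library, since the factors are not given. It was the ratio of whole numbers that left values of 6 significant digits, with its decade set by the library's summed FPKM. In some libraries more than 1 ratio met this rule. Alternatives were other pseudocounts, filters and scalings, a replicate block, fits of single comparisons, and each library left out.

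The 8 genes and all lists were chosen with earlier results of these data known. Named genes were the 8 members, Rnaseh1, per list and comparison up to 3 called genes with the largest change (or the 2 of highest level), the first 2 markers of each cell type list, and the 6 genes most alike by each of 2 measures. Crem, Gm14920 and the neighbours of the chromosome 16 cluster were added outside this rule, and only some genes the rule names are printed. Ybx3, H2afb2, H2afb3, Meiob, Rhox5 and Adgre1 were not found under these names. Motifs, promoters and coding sequences came from RefSeq (GRCm38.p6) and GENCODE M21, a later build than mm9, so no position was joined to the deposited values.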

Additional observations from a re-analysis of the deposited data

How the results depend on the processing

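At pachytene all 8 members stayed lower under every setting with values per gene. The count called was 8 in each full set of libraries, 3 to 8 with 1 library left out and 1 to 8 (2 without WT replicate 1 or KO-labelled replicate 2) with 1 left out after median-ratio scaling. At LZ the count of 7 was 4 without the filter, 0 both after median-ratio scaling and on FPKM not yet scaled by spike-in (before the scaling), 0 in the LZ libraries alone (5 where the filter was applied within them), 0 to 8 with 1 library left out and 0 to 6 with 1 left out after median-ratio scaling. Between the WT stages the count of 1 was 0 without the filter, 0 both after median-ratio scaling and on FPKM not yet scaled by spike-in (before the scaling), 8 in the WT libraries alone (also 8 filtered within them), 0 to 1 with 1 left out and 0 with 1 left out after median-ratio scaling. Between the KO-labelled stages the count of 0 was 3 (all lower) after median-ratio scaling, 8 (all lower) before the spike-in scaling, 0 to 7 with 1 left out and 0 to 8 with 1 left out after median-ratio scaling (2 without KO-labelled pachytene replicate 1). The interaction called 0 under every setting. The deviations of same-numbered libraries from their group means were also correlated over all genes. Between the stages the correlations were 0.163, 0.137 and 0.027 in WT and 0.083, 0.259 and 0.141 in KO-labelled libraries, all positive. Those of differently numbered libraries were -0.204 to 0.074 in WT and -0.257 to 0.157 in KO-labelled libraries. Between the genotypes same-numbered libraries correlated at -0.0006, 0.219 and 0.058 at LZ and -0.076, 0.080 and -0.167 at pachytene. Differently numbered ones correlated at -0.158 to 0.120 at LZ and -0.110 to 0.168 at pachytene. The labels state no pairing, so whether same-numbered libraries share an animal or a batch is not known. With the replicate block the counts were 5 between the WT stages, 6 (higher) between the KO-labelled stages, 8 at LZ and 8 at pachytene; with the block and median-ratio scaling they were 0, 8 (lower), 1 and 8. The block with median-ratio scaling, the leave-outs after it and the filter within single comparisons were chosen after seeing the data. The sign of the WT stage change turned for Prm1, Prm2, Prm3, Tnp1, Tnp2, H1fnt, Hils1 and H2afb1 to -1.003, -0.99, -0.31, -0.97, -0.93, -1.26, -0.92 and -0.82 after median-ratio scaling and -1.26, -1.25, -0.56, -1.23, -1.19, -1.51, -1.17 and -1.08 before the spike-in scaling. The KO-labelled stage change turned, in the same order, to -1.71, -1.67, -1.71, -1.55, -1.84, -2.08, -2.30 and -1.54, and to -2.27, -2.22, -2.25, -2.10, -2.40, -2.51, -2.82 and -2.03. With 1 library left out it ranged from -0.26 to 1.51 for H1fnt and -0.13 to 1.27 for Hils1. The interaction, never called, turned to -0.71, -0.68, -0.57, -0.91 and -0.71 for Prm1, Prm2, Tnp1, Tnp2 and H2afb1 after median-ratio scaling, to -1.01, -0.97, -0.87, -1.20 and -0.95 before the spike-in scaling, and to 0.026 for H1fnt at a pseudocount of 0.1. With 1 library left out it ranged from -0.44 to 1.03 (Prm1), -0.63 to 1.14 (Prm2), -1.43 to 0.15 (Prm3), -0.37 to 1.10 (Tnp1), -0.63 to 0.81 (Tnp2), -1.04 to 0.73 (H1fnt), -1.26 to 0.14 (Hils1) and -0.68 to 0.88 (H2afb1). The cause of these changes was not tested. Shares and ratios within libraries kept their direction or moved by less than the spread between replicates. Depth is unknown, so what it limits cannot be stated.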
